A study of Mus musculus with 7 samples.

Results

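The 39 genes described here belong to glycolysis and to the response to low oxygen: glucose and lactate transporters, glycolytic enzymes, hypoxia-inducible factor (Hif) subunits and genes known to be induced by hypoxia. They were chosen by function, as a list of names, out of 23337 genes in the expression tables, with earlier results of these data known. Of them 38 were found under their own symbol and Pkm under its older symbol Pkm2, and all 39 had a mean of at least 1 TPM and entered the tests. TPM are transcript levels scaled for transcript length and to a common total per library, and they keep no sequencing depth. The cells were bone marrow-derived macrophages, bone marrow cells grown into macrophages in culture, from male mice aged 6 to 8 weeks that were either wild type (WT) or lacked Tgm2, the gene of the protein-crosslinking enzyme transglutaminase 2 (KO). All cultures had the growth factor M-CSF at 25 ng/ml for 7 days. They were then left without further treatment (M0) or given the bacterial cell wall component lipopolysaccharide (LPS) at 10 ng/ml for 6 hours. WT M0, WT LPS and KO LPS have 2 libraries each and KO M0 has 1. The labels give neither the knockout allele nor its reach across cell types, and do not state whether replicates are different animals or cultures. The p-values therefore describe the spread among these libraries alone, which may be technical.

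Glycolysis turns glucose into pyruvate and, with lactate dehydrogenase, into lactate, and macrophages exposed to bacterial products are known for using it heavily. Hif factors drive many glycolytic genes: in oxygen, prolyl hydroxylases mark the Hif alpha subunits for breakdown, and in low oxygen or after LPS the subunits build up and bind short DNA elements near their targets. Several targets, among them the hydroxylase gene Egln3, feed back on the pathway. TPM report transcripts only, not protein, oxygen or metabolic flux.

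Tgm2 was lower in each KO library than in any WT library, at 433 and 368 TPM in WT M0, 233 and 199 in WT LPS, beside 50.7 in KO M0 and 19.4 and 19.2 in KO LPS. Macrophage markers (7 of 7) summed to between 33900 and 48700 TPM per library, while the erythroid markers were listed at 0 and the B cell, T or NK cell, dendritic cell and mast cell markers summed to 1.8 TPM or less. Stromal markers summed to between 20.9 and 39.8 TPM, and with LPS 2 of 4 fell in each genotype (Col1a1 and Col1a2, each at least 7.61 TPM in M0 and at most 1.57 in LPS libraries) and 1 rose (Pdgfrb, from at most 2.29 to at least 18.2). Of 7 neutrophil markers found, S100a8 was the highest, at 7.29 and 7.33 TPM in WT M0, 196 and 321 in WT LPS, beside 5.01 in KO M0 and 96.9 and 152 in KO LPS. Camp went from 0.906 TPM or less in M0 to between 9.14 and 12 in LPS libraries. Both rose in each genotype, the only 2 of the list that were tested, and the summed markers stood at 8.48 or less in M0 and between 106 and 333 in LPS libraries. Markers of proliferating cells summed to 487 and 560 TPM in KO LPS and to between 68.1 and 144 in the other 5 libraries, and 10 of 10 were higher in KO LPS than in WT LPS. With LPS, 9 of these 10 rose and 1 fell in KO cells, while 3 rose and 2 fell in WT cells. The LPS response was higher in KO than in WT cells for 8 of 10. Both WT LPS libraries, labelled male, held the X-inactivation RNA Xist, at 47.2 and 55.4 TPM, against 0.00535 or a listed 0 elsewhere. The Y-linked gene Ddx3y was 32.15 and 50.04 TPM in WT M0, 20.3 and 23.5 in WT LPS, beside 56.4 in KO M0 and 41.9 and 41.6 in KO LPS. From WT M0 to WT LPS, Xist rose by 5.70 and Ddx3y fell by 0.85 log2 units in the tests below. Each comparison that uses WT LPS carries this, the difference between the LPS responses included. WT M0 replicate 2 lay at a median absolute log2 difference of 0.0959 from KO M0 over tested genes, and at 0.221 from WT M0 replicate 1. The part of these features in the results below was not tested, except where a value without the libraries is given. In bulk RNA, fewer cells of a type and less RNA per cell cannot be told apart.

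LPS raised genes at several steps of glycolysis in both genotypes and moved the hypoxia targets in both directions. In WT cells 19 of the 39 genes rose and 5 fell (limma on log2(TPM + 1), adjusted p under 0.05), where 15% of all 11096 tested genes rose and 29.6% fell. In KO cells 17 rose and 8 fell, against 13.8% and 24.3% of all tested genes. The set was chosen with earlier results of these data known, so these counts are not an independent test of glycolysis. The median log2 fold change of the 39 genes was 0.43 in WT and 0.62 in KO cells, and that of all tested genes was -0.21 and -0.24. The genes that rose in both genotypes number 14 (Slc2a1, Slc2a6, Hk1, Hk2, Pfkl, Pfkfb3, Pgk1, Pgam1, Ldha, Slc16a1, Pdk3, Edn1, Bnip3 and P4ha1), and 5 fell in both (Slc2a3, Aldoc, Epas1, Vegfa and Ndrg1). No gene was called in opposite directions, and 36 of the 39 had the same sign. As a share of all TPM, the 39 genes made up 0.833% to 0.882% in the M0 libraries and 1.12% to 1.25% in the LPS libraries, without overlap. Without WT LPS replicate 2, 13 genes rose in WT cells, and without WT M0 replicate 1, 14. Without KO LPS replicate 2, 13 genes rose and 5 fell in KO cells. With both WT LPS libraries left out of the fit, 18 rose and 8 fell in KO cells. The balance over all genes depends on scaling: median-ratio scaling gave 2416 higher and 2348 lower in WT cells against 1665 and 3284 with the deposited TPM, and 2104 and 1854 in KO cells against 1533 and 2700.

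**Figure D1:**
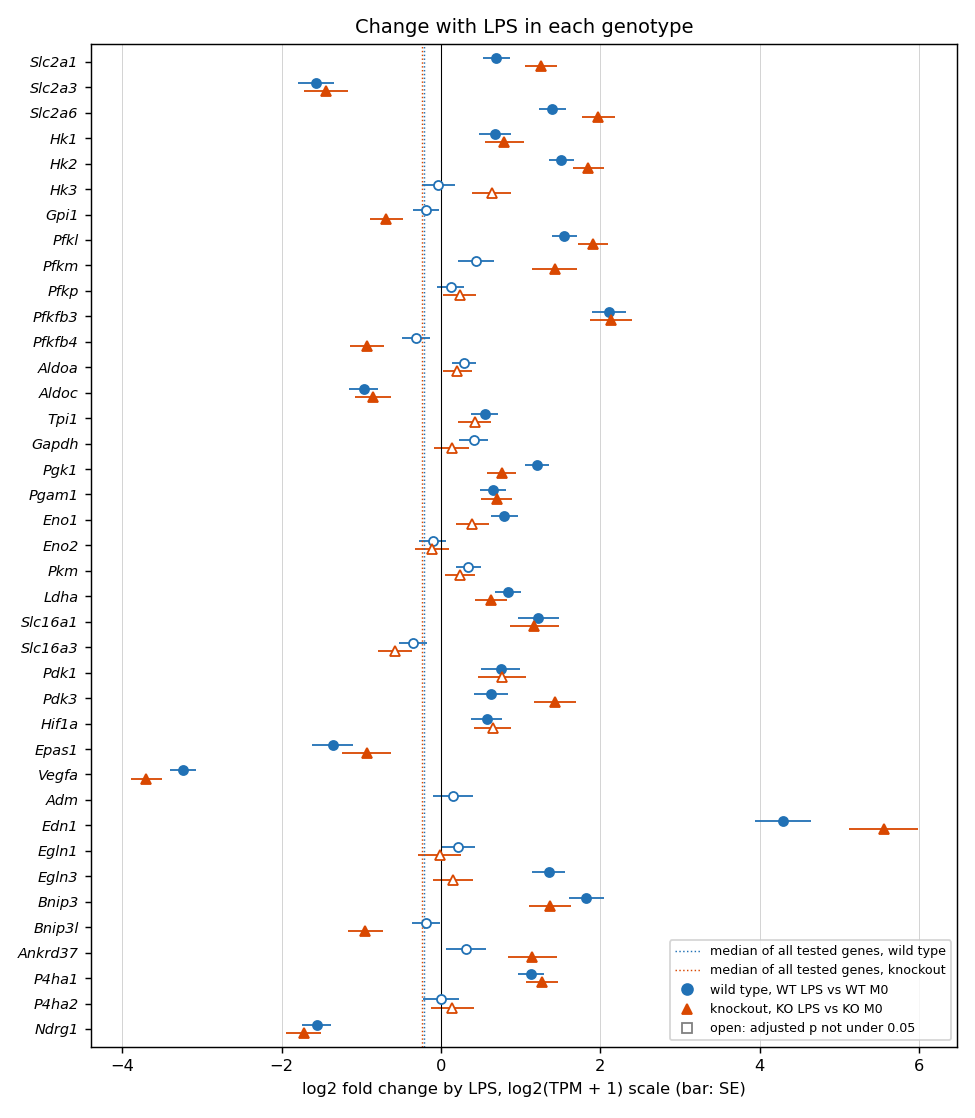
Log2 fold change with LPS on the log2(TPM + 1) scale (horizontal axis, bars 1 SE) of each of the 39 genes in wild-type (circles) and knockout cells (triangles), filled where the limma adjusted p is under 0.05. Edn1 (4.29 and 5.55) and Vegfa (-3.24 and -3.70) lie farthest from 0, and the dotted medians of all tested genes (-0.21 and -0.24) lie left of most points. Adm in knockout cells is not drawn because its KO M0 value is listed at 0.

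The sequence just upstream of the start sites of these genes was examined for the short elements that Hif and related factors bind. A window can lie inside the span of a gene, both for genes with several windows and for genes with 1, such as Hif1a, Pfkfb4, Slc16a3 and Gapdh. RefSeq start sites on GRCm38.p6 were found for 35 of the 39 genes (not Slc2a3, Epas1, Bnip3l or Ndrg1), with 49 windows of 250 bases that end at the base before the start. The core hypoxia element ACGTG was searched on both strands, as was its variant GCGTG and the E-box CACGTG, a palindrome that holds ACGTG on each strand and so counts as 2 of its matches. ACGTG lay in 49% of the 49 windows and in 22.1% of 10123 windows of 7945 tested genes. GCGTG lay in 55.1% and 44.9% and CACGTG in 12.2% and 8.61%. Per gene, 21 of 35 (60%) had ACGTG in a window, against 25.8% of all tested genes with a window. The set was chosen to hold genes known to be induced by hypoxia, so a surplus may follow from that choice. It is not a result of these libraries. Windows of a gene can overlap, as for Aldoa, so the same match can count more than once in the shares of windows. Among the genes with a window, ACGTG was found for 12 of 19 that rose in WT cells, 1 of 2 that fell and 8 of 14 that were not called. The windows shown are those of Ldha, Pgk1 and Bnip3, which rose in both genotypes, of Egln3 and Adm, which differed between genotypes under LPS, and both of Vegfa, which fell. Capitals mark every match to ACGTG or GCGTG on either strand. Each sequence runs from the first base of the window to the base before the start, on the strand of the gene.
Ldha, chr7:46845554-46845803, plus strand, window 1 of 2: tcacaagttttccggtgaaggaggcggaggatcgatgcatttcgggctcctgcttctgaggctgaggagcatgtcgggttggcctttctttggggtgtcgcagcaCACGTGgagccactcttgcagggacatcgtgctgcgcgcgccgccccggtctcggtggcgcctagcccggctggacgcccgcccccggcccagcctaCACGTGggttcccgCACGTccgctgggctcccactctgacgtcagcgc
Pgk1, chrX:106186850-106187099, plus strand: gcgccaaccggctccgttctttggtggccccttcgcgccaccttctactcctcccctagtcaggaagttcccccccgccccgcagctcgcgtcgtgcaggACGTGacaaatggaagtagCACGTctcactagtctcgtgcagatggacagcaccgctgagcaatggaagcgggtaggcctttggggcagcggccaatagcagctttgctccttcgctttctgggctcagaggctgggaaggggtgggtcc
Bnip3, chr7:138909507-138909756, minus strand: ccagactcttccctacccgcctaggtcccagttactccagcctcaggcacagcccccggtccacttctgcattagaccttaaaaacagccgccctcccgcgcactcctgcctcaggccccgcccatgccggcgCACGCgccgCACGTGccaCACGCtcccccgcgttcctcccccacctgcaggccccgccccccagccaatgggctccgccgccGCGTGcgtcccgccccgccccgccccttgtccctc
Egln3, chr12:54203875-54204124, minus strand: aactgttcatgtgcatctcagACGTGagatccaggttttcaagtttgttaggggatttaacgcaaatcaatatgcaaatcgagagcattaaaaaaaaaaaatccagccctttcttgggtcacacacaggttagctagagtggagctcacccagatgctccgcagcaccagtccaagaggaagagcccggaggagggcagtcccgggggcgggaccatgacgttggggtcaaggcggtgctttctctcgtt
Adm, chr7:110627407-110627656, plus strand: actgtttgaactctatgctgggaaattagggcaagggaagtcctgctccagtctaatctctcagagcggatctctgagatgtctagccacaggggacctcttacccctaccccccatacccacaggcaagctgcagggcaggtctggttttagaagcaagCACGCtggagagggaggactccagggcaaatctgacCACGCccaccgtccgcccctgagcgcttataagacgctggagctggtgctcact
Vegfa, chr17:46032378-46032627, minus strand, window 1 of 2: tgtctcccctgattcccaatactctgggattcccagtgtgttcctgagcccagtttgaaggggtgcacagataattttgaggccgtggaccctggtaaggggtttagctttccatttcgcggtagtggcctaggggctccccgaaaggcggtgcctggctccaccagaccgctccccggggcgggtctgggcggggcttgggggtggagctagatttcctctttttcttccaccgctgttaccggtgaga
Vegfa, chr17:46025164-46025413, minus strand, window 2 of 2: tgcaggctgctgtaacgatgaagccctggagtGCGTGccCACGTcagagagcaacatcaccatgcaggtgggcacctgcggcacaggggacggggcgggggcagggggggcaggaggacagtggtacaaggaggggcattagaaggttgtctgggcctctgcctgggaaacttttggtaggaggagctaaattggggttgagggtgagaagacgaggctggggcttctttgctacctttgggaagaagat
The Ldha window shown held 5 ACGTG matches, from 2 E-boxes and a single core, the Pgk1 window 2, the Bnip3 window 2 with 3 of GCGTG, and the Egln3 window 1. The other Ldha window had 0 of ACGTG and 1 of GCGTG. Adm had 2 matches to GCGTG and 0 to ACGTG. Window 1 of Vegfa, just before the gene, had 0 of either. Window 2 lies inside the span of the gene (46016993 to 46032377), where it can hold transcribed sequence, and had 1 of each. By window 2 alone, Vegfa is the 1 gene counted above that fell in WT cells and had ACGTG. A match is a description of the letters and not of binding, and 0 matches says only that the letters are not in this window.

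Glucose transporters changed in opposite directions. Slc2a6, a hexose transporter of lysosomal membranes, was the most abundant of the 3 in TPM, with 242 and 209.9 TPM in WT M0, 667 and 530.2 in WT LPS, beside 221 in KO M0 and 936 and 811 in KO LPS. Every LPS library stood above every M0 library, and LPS raised it by 1.40 log2 units (SE 0.17) in WT and 1.98 (SE 0.21) in KO cells. Slc2a1, the widely expressed glucose carrier Glut1, stood at 101 and 91.3 TPM in WT M0, 148 and 164 in WT LPS, beside 82.8 in KO M0 and 177 and 224 in KO LPS. It rose by 0.69 in WT (adjusted p 0.00698) and 1.26 in KO cells (adjusted p 0.000825). Without WT LPS replicate 2 the WT change of Slc2a1 missed the threshold (adjusted p 0.0595). Slc2a3, the high-affinity carrier Glut3, went the other way, from 4.24 and 5.33 TPM in WT M0 to 1.08 and 0.814 in WT LPS, and from 5.77 to 1.26 and 1.75 in KO cells (log2 fold changes -1.57 and -1.44). Together the 3 transporters summed to between 307 and 348 TPM in M0, 695 and 816.5 in WT LPS, against 1115 and 1036 in KO LPS.

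Among the hexokinases, which trap glucose as glucose-6-phosphate, Hk2 rose most. Hk2 stood at 15.8 and 16.2 TPM in WT M0, 48.5 and 46.5 in WT LPS, beside 18.4 in KO M0 and 71.3 and 67 in KO LPS, and its log2 fold change was 1.51 (SE 0.16) in WT and 1.85 (SE 0.20) in KO cells, with no overlap between M0 and LPS libraries. Its share of the summed hexokinase TPM went from 8.01% to 10.1% in M0 to 17.7% to 21.5% in LPS libraries. Hk1 rose from 34.8 and 51.5 to 72.3 and 64.8 TPM in WT cells (0.68, adjusted p 0.017) and from 46.7 to 81 and 82.6 in KO cells (0.80, adjusted p 0.0243). Hk1 lost its WT call with all genes kept (adjusted p 0.0622), without WT M0 replicate 1 (0.117) or without WT LPS replicate 1 (0.105). Hk1 lost its KO call with all genes kept (adjusted p 0.0783), without KO LPS replicate 1 (0.0553) or without KO LPS replicate 2 (0.067). Hk3, the main hexokinase transcript of these cells, did not pass in either genotype (-0.03 and 0.63). Its share of hexokinase TPM was 62.9% to 74.4% in M0 and 48.5% to 56% in LPS libraries.

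In the upper part of glycolysis the leading phosphofructokinase transcript was Pfkp in M0 libraries and Pfkl in LPS libraries. Pfkl, the liver-type form of this committing step, stood at 31.6 and 28.9 TPM in WT M0, 88.5 and 91.8 in WT LPS, beside 26.4 in KO M0 and 105 and 99 in KO LPS. The rise was 1.55 log2 units (SE 0.15) in WT and 1.91 (SE 0.19) in KO cells. Pfkp, the platelet form, was 64.3 and 59.5 TPM in WT M0, 75.7 and 59.9 in WT LPS, beside 62.4 in KO M0 and 76 and 71.5 in KO LPS and did not pass (0.12 and 0.24). In TPM Pfkp made up 62.8% to 66% of phosphofructokinase transcripts in M0 libraries and 37.7% to 43.4% after LPS, while Pfkl went from between 28% and 31.1% to between 50.7% and 57.8%. Pfkm, the muscle form, was 5.83 and 6.33 TPM in WT M0, 10.2 and 7.17 in WT LPS, beside 5.76 in KO M0 and 19.9 and 14.8 in KO LPS. It rose in KO cells (1.42, adjusted p 0.00247) and did not pass in WT cells (0.43, adjusted p 0.145), where it passed with quantile normalization (adjusted p 0.0268). Gpi1, which converts glucose-6-phosphate to fructose-6-phosphate, was 297 and 341 TPM in WT M0 and 263 and 295 in WT LPS (-0.19, adjusted p 0.38). In KO cells Gpi1 fell from 334 to 231 and 186 TPM (-0.69, adjusted p 0.023). Gpi1 lost its KO call with median-ratio scaling (adjusted p 0.105), with all genes kept (0.0572), with the compared groups alone (0.0628) or without KO LPS replicate 2 (0.0956). Aldoa, the main aldolase, held at least 97.9% of the pair's TPM in each library and did not pass in either genotype (0.29 and 0.20), though it passed in WT cells with median-ratio scaling (adjusted p 0.0261) or with quantile normalization (0.042). In mean TPM it was second to Gapdh in the set. Aldoc, the brain-type aldolase, fell from 21.9 and 23.2 to 11 and 11.1 TPM in WT (-0.97) and from 28.7 to 17.1 and 13.9 in KO cells (-0.85). Aldoc lost its KO call without KO LPS replicate 2 (adjusted p 0.068). Triosephosphate isomerase, Tpi1, stood at 254 and 230.5 TPM in WT M0, 308 and 407 in WT LPS, beside 239.6 in KO M0 and 324 and 319.5 in KO LPS. It rose in WT cells (0.55, adjusted p 0.023) and did not pass in KO cells (0.42, adjusted p 0.133), where it passed with median-ratio scaling (adjusted p 0.0296). Tpi1 lost its WT call with all genes kept (adjusted p 0.0582), without WT M0 replicate 1 (0.0522), without WT M0 replicate 2 (0.106), without WT LPS replicate 2 (0.226) or with quantile normalization (0.0999).

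The enzymes that set fructose-2,6-bisphosphate, the activator of phosphofructokinase, also diverged. Pfkfb3, whose product is mostly the activator, stood at 53.5 and 61.5 TPM in WT M0, 314 and 199 in WT LPS, beside 65.1 in KO M0 and 307 and 272 in KO LPS. It rose by 2.11 (SE 0.21) in WT and 2.13 (SE 0.26) in KO cells, and no M0 library overlapped an LPS library. Pfkfb4, a second form that both makes and removes the activator, was 25.5 and 27.7 TPM in WT M0, 19.8 and 22.7 in WT LPS, beside 23.8 in KO M0 and 11.9 and 12.3 in KO LPS. It fell in KO cells (-0.92, adjusted p 0.00649) and did not pass in WT cells (-0.31, adjusted p 0.172). Pfkfb3 made up 67.7% to 73.2% of the pair's TPM in M0 and 89.8% to 96.3% in LPS libraries.

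**Figure D2:**
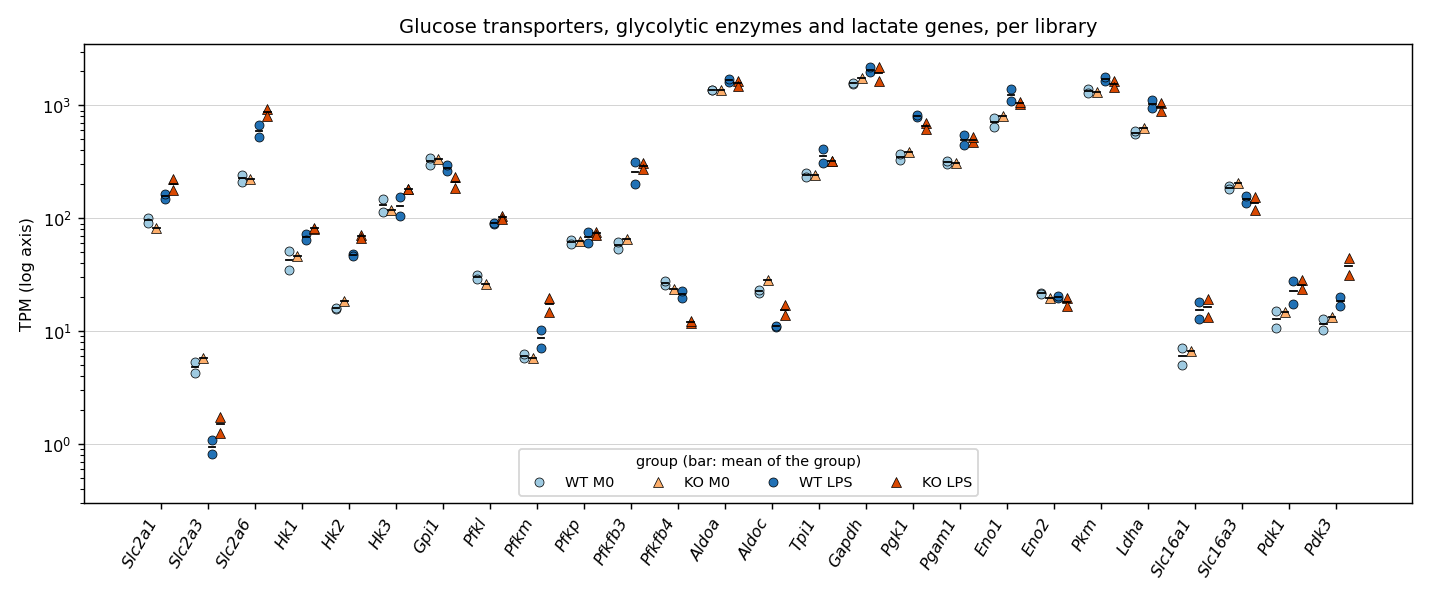
TPM (log axis) of the transporters, glycolytic enzymes, lactate genes and pyruvate dehydrogenase kinases in each of the 7 libraries, with 1 point per library and a bar at the group mean. Hk2, Pfkl, Pfkfb3 and Pgk1 lie higher in all 4 LPS libraries than in all 3 M0 libraries, and Slc2a3 and Aldoc lie lower.

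The lower part of glycolysis, which yields ATP and pyruvate, held Gapdh, the most abundant transcript of the set, and Pgk1 rose most of its genes. Phosphoglycerate kinase, Pgk1, stood at 326 and 371 TPM in WT M0, 793 and 816 in WT LPS, beside 389 in KO M0 and 698 and 624 in KO LPS, a log2 fold change of 1.21 (SE 0.15, adjusted p 0.000107) in WT and 0.76 (SE 0.19, adjusted p 0.0086) in KO cells. The phosphoglycerate mutase Pgam1 went from 305 and 322 to 443 and 552 TPM in WT and from 306 to 470.5 and 525 in KO cells (0.66 and 0.70). Without WT LPS replicate 2 the WT change of Pgam1 missed the threshold (adjusted p 0.0938), and the KO change did without KO LPS replicate 2 (0.0634) or with quantile normalization (0.0819). The main enolase, Eno1, rose in WT cells from 649 and 781 to 1101 and 1389 TPM (0.80, adjusted p 0.00351; 0.0502 without WT LPS replicate 2). In KO cells Eno1 went from 800.1 to 1033 and 1066 TPM, which did not pass (0.39, adjusted p 0.166) but passed with median-ratio scaling (adjusted p 0.0283). Gapdh, often used as a constant reference gene, was 1551 and 1579 TPM in WT M0, 1959 and 2201 in WT LPS, beside 1734 in KO M0 and 2209 and 1633 in KO LPS. Its log2 fold change was 0.41 in WT (adjusted p 0.0867) and 0.13 in KO cells (adjusted p 0.667), and in WT cells it passed with median-ratio scaling (adjusted p 0.0243), with the compared groups alone (0.0453), without KO LPS replicate 1 (0.0456) or without KO LPS replicate 2 (0.046). The pyruvate kinase Pkm was 1408 and 1299 TPM in WT M0, 1638 and 1796 in WT LPS, beside 1303 in KO M0 and 1641 and 1450 in KO LPS and did not pass (0.34 and 0.24), but passed in WT cells with median-ratio scaling (adjusted p 0.0219) or with quantile normalization (0.0228). Eno2, the neuronal enolase, ranged from 16.8 to 22 TPM over the 7 libraries and did not pass. Genes such as Gapdh, Pgk1, Pgam1, Eno1, Aldoa and Ldha have many near-identical pseudogene copies, and how shared reads were assigned is not given in the sources used here, so their values are uncertain. From the hexokinases to Ldha, 17 enzyme genes made up 0.707% to 0.742% of all TPM in M0 and 0.888% to 1.07% in LPS libraries.

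At the lactate step, the dehydrogenase subunit gene Ldha stood at 559 and 589.9 TPM in WT M0, 943 and 1118 in WT LPS, beside 625 in KO M0 and 889 and 1046 in KO LPS. It rose by 0.84 (adjusted p 0.0018) in WT and 0.62 (adjusted p 0.0293) in KO cells. Ldha lost its KO call with all genes kept (adjusted p 0.0667), with the compared groups alone (0.081) or without KO LPS replicate 2 (0.104). Of the lactate carriers, Slc16a1 (Mct1) rose from 5 and 7.08 to 12.8 and 18.2 TPM in WT (1.22) and from 6.64 to 13.5 and 19.5 in KO cells (1.17). Slc16a1 lost its KO call with all genes kept (adjusted p 0.0753) or without KO LPS replicate 2 (0.0718). Slc16a3 (Mct4), the more abundant export carrier, was 192 and 183 TPM in WT M0, 136 and 158 in WT LPS, beside 204 in KO M0 and 155 and 119 in KO LPS and did not pass (-0.35, adjusted p 0.123, and -0.58, adjusted p 0.0518), but passed as lower in WT cells with quantile normalization (adjusted p 0.0475) and in KO cells without KO LPS replicate 1 (adjusted p 0.0223) or with quantile normalization (0.0227). Kinases that switch off pyruvate dehydrogenase keep pyruvate from the mitochondrial cycle. Of the 2 in the set, both rose in WT cells and Pdk3 also in KO cells. Outside the set, Pdk2 and Pdk4 lay lower in LPS than in M0 libraries. Pdk2 was 6.71 and 6.8 TPM in WT M0, 1.91 and 3.04 in WT LPS, beside 8.02 in KO M0 and 0.836 and 1.01 in KO LPS. Pdk4 was at most 0.655 TPM in M0 and listed at 0 in LPS libraries. Pdk1 rose in WT cells from 10.8 and 15 to 17.6 and 27.7 TPM (0.75, adjusted p 0.0296). Pdk1 lost its WT call with all genes kept (adjusted p 0.111), without WT M0 replicate 1 (0.204) or without WT LPS replicate 2 (0.225). In KO cells Pdk1 was 14.8 and then 23.5 and 28.3 TPM (0.77, adjusted p 0.0678), and passed with median-ratio scaling (adjusted p 0.0204), with the compared groups alone (0.0475), without WT LPS replicate 1 (0.0436), without WT LPS replicate 2 (0.0442), with quantile normalization (0.0185) or without both WT LPS libraries (0.0448). Pdk3 rose in WT (0.62, adjusted p 0.0366) and in KO cells (1.43, adjusted p 0.00178), from 10.4 and 12.9 to 20.2 and 16.7 and from 13.3 to 31.8 and 44.4 TPM. Pdk3 lost its WT call with all genes kept (adjusted p 0.0982), without WT M0 replicate 1 (0.195), without WT M0 replicate 2 (0.0567) or without WT LPS replicate 1 (0.193).

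Of the Hif alpha subunits, Hif1a was by far the more abundant in TPM, at 157 and 204 TPM in WT M0, 253 and 280.1 in WT LPS, beside 222 in KO M0 and 302 and 403 in KO LPS, and made up at least 98.6% of the pair in each library. It rose in WT cells (0.57, adjusted p 0.0321), and in KO cells it fell just short (0.65, adjusted p 0.0501). Hif1a lost its WT call with all genes kept (adjusted p 0.0985), without WT M0 replicate 1 (0.201), without WT LPS replicate 1 (0.0819), without WT LPS replicate 2 (0.158) or with quantile normalization (0.109). In KO cells Hif1a passed with median-ratio scaling (adjusted p 0.0148), without WT M0 replicate 1 (0.0472), without WT M0 replicate 2 (0.0474) or without KO LPS replicate 1 (0.0207). Epas1, which encodes Hif-2 alpha, fell from 2.02 and 2.94 to 0.18 and 0.526 TPM in WT (-1.36, adjusted p 0.0015) and from 1.77 to 0.603 and 0.316 in KO cells (-0.93, adjusted p 0.0369). Epas1 lost its KO call with median-ratio scaling (adjusted p 0.0678), with pseudocount 0.1 (0.0631), with all genes kept (0.0592), without KO LPS replicate 2 (0.126) or with quantile normalization (0.096). These low values make the log2(TPM + 1) change an understatement.

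The secreted hypoxia targets did not move together. Vegfa, the vascular growth factor and a textbook Hif target, stood at 221 and 268 TPM in WT M0, 25.2 and 24.6 in WT LPS, beside 256 in KO M0 and 19.5 and 18.1 in KO LPS, on chromosome 17 from 46016993 to 46032377 (GRCm38). It fell by 3.24 log2 units (SE 0.16) in WT and by 3.70 (SE 0.20) in KO cells, and the ratio of mean TPM, LPS to M0, was 0.102 and 0.0735. Edn1, the vasoconstrictor peptide endothelin 1 (chromosome 13 from 42301476 to 42307990), was near 0 in M0 and far higher in LPS, at 0.115 and 0.145 TPM in WT M0, 34.2 and 12.8 in WT LPS, beside 0.0606 in KO M0 and 46 and 51.9 in KO LPS. The log2 fold change of Edn1 was 4.29 (SE 0.35) in WT and 5.55 (SE 0.43) in KO cells. With M0 values near 0 the size of these changes depends on the pseudocount, and over the alternatives they reached 6.52 and 8.25. The ratio of mean TPM, LPS to M0, was 181 and 807 for Edn1, also on M0 values near 0. Adm, the vasodilator peptide adrenomedullin (chromosome 7 from 110627657 to 110629820), was 1.45 and 0.697 TPM in WT M0 and 1.4 and 1.13 in WT LPS, which overlapped (0.15, adjusted p 0.658). In KO M0 it is listed at 0 and in KO LPS it was 4.45 and 5.63 TPM, so no fold is given for KO cells.

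Among the prolyl hydroxylases that mark Hif alpha subunits, Egln3 rose with LPS in WT cells and not in KO cells by the test. Egln3 (chromosome 12 from 54178981 to 54203874) stood at 3.82 and 3.87 TPM in WT M0, 10.4 and 12.3 in WT LPS, beside 3.38 in KO M0 and 4.38 and 3.38 in KO LPS. The WT LPS libraries were above all others, and the KO LPS libraries lay close to the M0 libraries. The log2 fold change with LPS was 1.35 (SE 0.21, adjusted p 0.000459) in WT and 0.15 (SE 0.26, adjusted p 0.676) in KO cells. The difference between these responses was -1.20 (SE 0.33) with an adjusted p of 0.145, which did not pass. Egln1, the main oxygen sensor among the hydroxylases, was between 28.3 and 45.7 TPM in the 7 libraries and did not pass in either genotype.

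Of the mitophagy receptor pair, Bnip3l was the more abundant transcript in M0 libraries and Bnip3 in LPS libraries. Bnip3 stood at 22 and 25.2 TPM in WT M0, 71.4 and 103 in WT LPS, beside 27.8 in KO M0 and 63 and 85.5 in KO LPS and rose by 1.82 (SE 0.22) in WT and 1.37 (SE 0.27) in KO cells. Bnip3l (Nix) was 60.2 and 71.9 TPM in WT M0, 51.5 and 64.4 in WT LPS, beside 76.7 in KO M0 and 36.8 and 41.6 in KO LPS, fell in KO cells (-0.95, adjusted p 0.00649) and did not pass in WT cells (-0.19). Bnip3 made up 25.9% to 26.8% of the pair's TPM in M0 and 58.1% to 67.3% in LPS libraries. P4ha1, a catalytic subunit of the collagen prolyl hydroxylase, went from 35.6 and 40.1 to 83 and 84.6 TPM in WT and from 39.1 to 87.8 and 104 in KO cells (1.13 and 1.27), while P4ha2 was between 3.07 and 5.75 TPM and did not pass. Ndrg1, a stress-response gene, fell from 79.6 and 83.4 to 24.6 and 29.4 and from 94.6 to 24.9 and 31.2 TPM (-1.56 and -1.73). Ankrd37, an ankyrin repeat gene, was 4.22 and 6.82 TPM in WT M0, 5.79 and 8.25 in WT LPS, beside 2.99 in KO M0 and 8.09 and 7.59 in KO LPS. It rose in KO cells (1.15, adjusted p 0.0137), where the single M0 value was the lowest of the 7, and did not pass in WT cells (0.31), where it passed with quantile normalization (adjusted p 0.0288). Ankrd37 lost its KO call with all genes kept (adjusted p 0.0712).

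**Figure D3:**
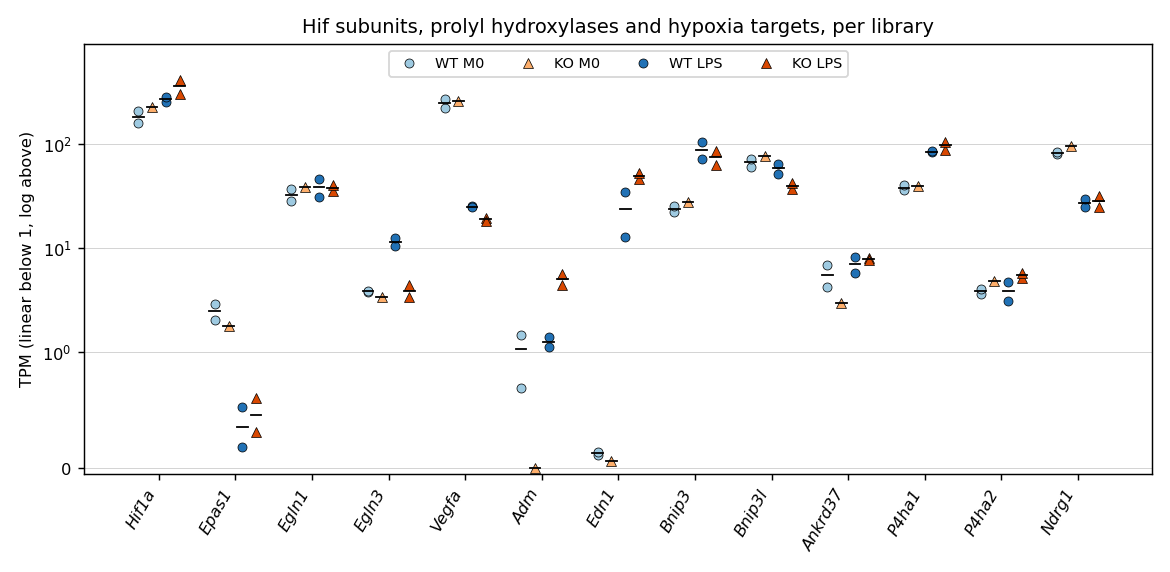
TPM (vertical axis, linear below 1 and logarithmic above) of the Hif subunits, prolyl hydroxylases and hypoxia targets in each library, with a bar at each group mean. Vegfa falls from between 221 and 268 TPM in M0 to between 18.1 and 25.2 in LPS libraries while Edn1 and Bnip3 lie higher, and Egln3 is high in the 2 WT LPS libraries alone.

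Under LPS, 5 of the 39 genes differed between genotypes: Adm, Pdk3 and Pfkm were higher in KO LPS than in WT LPS, and Egln3 and Pfkfb4 were lower. Of all tested genes 4.59% were higher and 2.58% lower, so a few calls among 39 genes lie near that background. The median of the 39 genes was 0.11, against 0.03 over all tested genes. An unadjusted limma p under 0.05 was found for 13 of the 39, beside 2215 of all 11096 tested genes. Over all genes 509 were higher and 286 lower with the deposited TPM, and 390 and 335 after quantile normalization, which was chosen after seeing the data. Of the 39 genes 0 were higher and 1 lower without KO LPS replicate 2, and 1 was higher and 1 lower without WT LPS replicate 2. Over all genes these fits gave 256 and 143, and 301 and 122. The WT LPS libraries hold Xist and the KO LPS libraries hold more transcript of proliferation genes, as given above. In KO LPS 2 of 4 stromal markers were also higher, and 1 of 2 tested neutrophil markers was lower. The Y-linked gene Ddx3y was 20.3 and 23.5 TPM in WT LPS against 41.9 and 41.6 in KO LPS (0.90, limma adjusted p 0.0296). Every value in this comparison carries these features, whose part was not tested.

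Egln3 was the gene of the set with the largest drop: 10.4 and 12.3 TPM in WT LPS against 4.38 and 3.38 in KO LPS, a log2 fold change of -1.35 (SE 0.21, adjusted p 0.00323) and a ratio of mean TPM of 0.341. It passed under all 12 alternatives, with an adjusted p of at most 0.0492. Pfkfb4 (chromosome 9 from 108988272 to 109032236) was 19.8 and 22.7 TPM in WT LPS against 11.9 and 12.3 in KO LPS, a log2 fold change of -0.77 (SE 0.17, adjusted p 0.0253). The KO LPS libraries lay below the other 5. Pfkfb4 lost its KO LPS vs WT LPS call with all genes kept (adjusted p 0.0664), with the compared groups alone (0.0521), without WT LPS replicate 1 (0.0583), without WT LPS replicate 2 (0.181), without KO LPS replicate 1 (0.11) or without KO LPS replicate 2 (0.112).

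Adm was 1.4 and 1.13 TPM in WT LPS against 4.45 and 5.63 in KO LPS, the 2 highest of the 7 values, with a log2 fold change of 1.41 (SE 0.25, adjusted p 0.00707) and a ratio of mean TPM of 3.98. Adm lost its KO LPS vs WT LPS call with all genes kept (adjusted p 0.0665) or without KO LPS replicate 2 (0.0598). Pdk3 (chromosome X from 93764616 to 93832150) was 20.2 and 16.7 against 31.8 and 44.4 TPM (0.99, SE 0.21, adjusted p 0.02). Pdk3 lost its KO LPS vs WT LPS call with all genes kept (adjusted p 0.125), without WT LPS replicate 2 (0.142) or without KO LPS replicate 2 (0.176). Pfkm (chromosome 15 from 98092589 to 98132447) was 10.2 and 7.17 against 19.9 and 14.8 TPM (0.92, SE 0.23, adjusted p 0.0359). Pfkm lost its KO LPS vs WT LPS call with median-ratio scaling (adjusted p 0.058), with all genes kept (0.161), with the compared groups alone (0.0723), without WT M0 replicate 1 (0.0761), without WT M0 replicate 2 (0.0763), without WT LPS replicate 2 (0.243), without KO LPS replicate 1 (0.204), without KO LPS replicate 2 (0.0612) or with quantile normalization (0.0652). The Pfkm call was thus lost under 9 of 12 alternatives. Pdk3 and Pgk1 lie on the X chromosome, and the WT LPS libraries hold Xist, whose part in the values of these genes was not tested. Pgk1 was 793 and 816 against 698 and 624 TPM, which did not pass (-0.29, adjusted p 0.339).

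The remaining 34 genes did not pass between the LPS groups. Edn1 had the largest such difference: WT LPS held 34.2 and 12.8 TPM, values far apart, and KO LPS 46 and 51.9 (1.17, SE 0.35, adjusted p 0.0808). Without WT LPS replicate 1 it passed (1.85, adjusted p 0.00231). Slc2a6 (0.55, adjusted p 0.0904) and Hk2 (0.53, adjusted p 0.0792) lay higher in KO LPS and Bnip3l lower (-0.55, adjusted p 0.111), without passing. With the replicate block Slc2a6 (adjusted p 0.0307), Hk2 (0.0409) and Bnip3l (0.0358) passed, though replicate numbers did not pair the libraries by the rule used. Hif1a was 0.39 (SE 0.19), Vegfa -0.39 (SE 0.16) and Ldha -0.09 (SE 0.16). In the lower part of glycolysis 0 of 6 genes passed, with a median of -0.15.

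**Figure D4:**
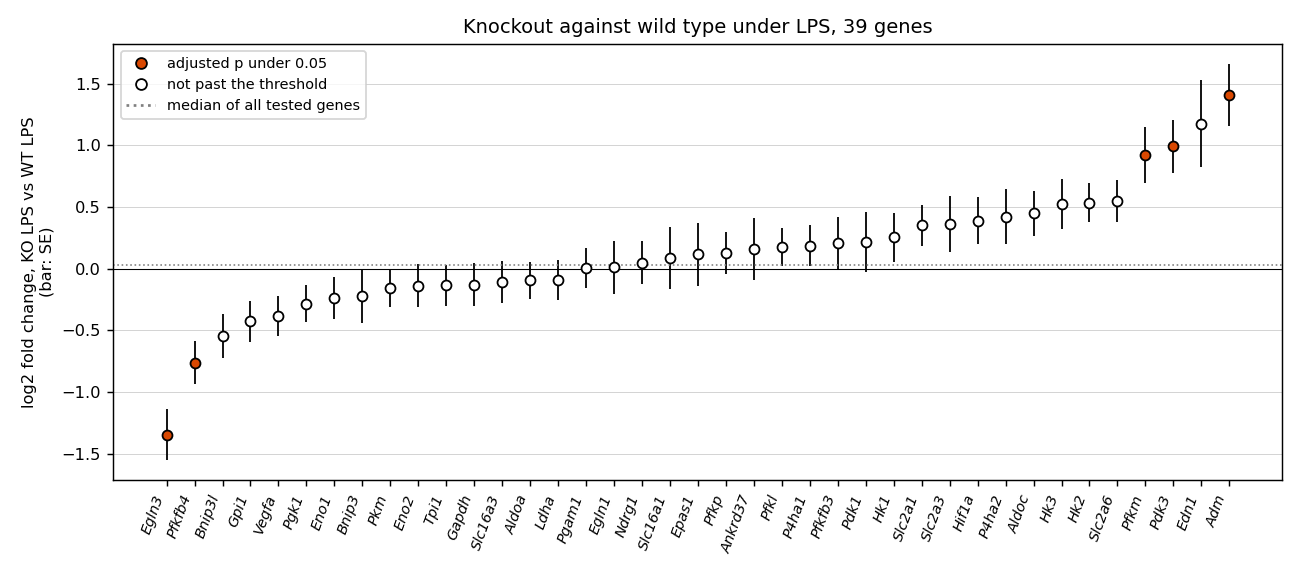
Log2 fold change of KO LPS against WT LPS (vertical axis, bars 1 SE) for the 39 genes in rising order, filled where the limma adjusted p is under 0.05. Egln3 (-1.35) and Pfkfb4 (-0.77) are filled at the low end and Pfkm (0.92), Pdk3 (0.99) and Adm (1.41) at the high end, and Edn1 (1.17) is open.

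**Figure D5:**
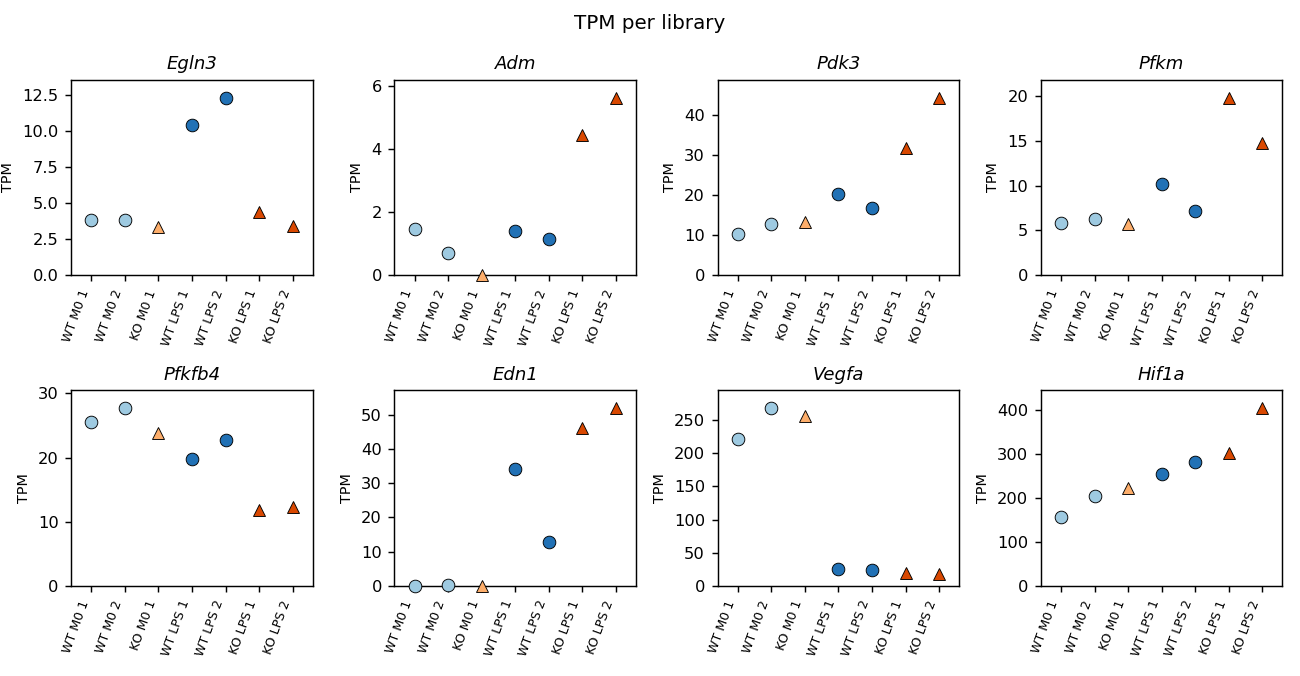
TPM (vertical axis, from 0) of 8 genes in each library, circles for wild type and triangles for knockout. Egln3 reaches 10.4 and 12.3 TPM in WT LPS and no more than 4.38 elsewhere, Adm reaches 4.45 and 5.63 in KO LPS, and the Edn1 values of WT LPS (34.2 and 12.8) lie far apart.

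Without LPS, 0 of the 39 genes passed between genotypes by limma, where 0% of all tested genes were higher and 0.00901% lower (Tgm2 alone). With a single KO M0 library, smaller changes can be missed, so 0 calls do not show equal levels. At an unadjusted p under 0.05 there were 2 of 39, Adm and Ankrd37, both low in the single KO M0 library, beside 154 of all 11096 tested genes. Without both WT LPS libraries in the fit the count was also 0. Hif1a was 157 and 204 TPM in WT M0 and 222 in KO M0 (0.31, SE 0.23), Egln3 3.82 and 3.87 against 3.38 (-0.15, SE 0.26) and Vegfa 221 and 268 against 256 (0.07, SE 0.20).

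The test of the difference between the LPS responses, KO minus WT, passed for Adm alone among the 39 genes, against 0.847% of all tested genes higher and 0.523% lower, or 0 and 6 genes without WT M0 replicate 1. The Adm value was 2.44 (SE 0.40, adjusted p 0.0185). It rests on a single KO M0 library listed at 0, so its size is set by the pseudocount and was 5.38 with 0.1 (adjusted p 0.0104). Adm lost its interaction call with all genes kept (adjusted p 0.126), without WT M0 replicate 1 (0.115) or without KO LPS replicate 2 (0.053). At an unadjusted p under 0.05 there were 7 of 39: Adm, Egln3 (-1.20), Pfkm (0.99), Bnip3l (-0.76), Pdk3 (0.80), Edn1 (1.26) and Pfkfb4 (-0.61). Of all 11096 tested genes 1160 were under that value. Without WT LPS replicate 1 Edn1 passed too (1.94, adjusted p 0.035).

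Genes around the pathway, in lists set by function, moved in both directions. Their counts stand beside 15% of all tested genes that rose and 29.6% that fell in WT cells, and 13.8% and 24.3% in KO cells. Genes of these lists were not followed one by one through the alternatives. Of 18 tested genes of other glucose handling, 2 rose and 11 fell in WT and 1 rose and 10 fell in KO cells, with a median of -0.80 and -0.90 against -0.21 and -0.24 for all tested genes. The lactate carrier Slc16a7 (-2.59) and the glucose carrier Slc2a8 (-2.01) fell in WT cells and the glycerol phosphate dehydrogenase Gpd2 rose (1.61). Of 29 genes of pyruvate entry and the citric acid cycle 2 rose and 11 fell in WT, and 3 rose and 8 fell in KO cells, with medians of -0.23 and -0.20, near those of all tested genes. Idh2, a mitochondrial isocitrate dehydrogenase, fell from 41.5 and 41.2 to 8.53 and 13 TPM in WT cells (-1.87), while pyruvate carboxylase, Pcx, rose (1.59). Of 12 pentose phosphate genes 3 rose and 2 fell in WT and 2 rose and 2 fell in KO cells, the NADPH-yielding dehydrogenase Pgd among the rising ones (0.91 in WT). Of 13 glycogen genes 4 rose and 2 fell in WT and 4 rose and 3 fell in KO cells. The branching enzyme Gbe1 stood at 10.8 and 12.1 TPM in WT M0, 70.7 and 74 in WT LPS, beside 10.5 in KO M0 and 39 and 41.7 in KO LPS, a rise of 2.56 in WT and 1.85 in KO cells.

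Of 14 tested genes that control Hif, 2 rose and 3 fell in WT cells and 0 rose and 1 fell in KO cells, and the WT counts lie near the shares over all tested genes. Cited2, which competes with Hif for its coactivators, fell in both (-1.44 and -1.39), and Hif1an, the asparagine hydroxylase that limits Hif activity, fell in WT cells (-0.75). Of 33 other hypoxia targets 8 rose and 10 fell in WT and 7 rose and 9 fell in KO cells, with medians of -0.08 and 0.08, and the counts that fell lie near the 29.6% and 24.3% of all tested genes. Lox, the collagen-crosslinking lysyl oxidase, stood at 16.3 and 17.8 TPM in WT M0, 429 and 416 in WT LPS, beside 18 in KO M0 and 284 and 302 in KO LPS (4.55 in WT, 3.95 in KO cells), and Ak4, an adenylate kinase, rose (2.76 in WT). Angptl4, an inhibitor of lipoprotein lipase, fell (-2.80 in WT). Of 11 glucose-sensing and Myc genes 2 rose and 3 fell in WT and 0 rose and 5 fell in KO cells, Myc itself falling from 38.8 and 45.6 to 3.88 and 3.86 TPM in WT cells (-3.15).

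Between KO LPS and WT LPS, these lists held few changes, where 4.59% of all tested genes were higher and 2.58% lower. The chemokine receptor Cxcr4 (-2.28), the repressor Bhlhe41 (-1.46) and the growth factor Pdgfb (-0.63) were lower in KO LPS. Thus 3 of 33 other hypoxia targets were lower, and 1 was higher. Txnip, which restrains glucose uptake and is itself switched on by glucose, was 216 and 258 TPM in WT M0, 179 and 183 in WT LPS, beside 244 in KO M0 and 107 and 111 in KO LPS, and it was lower in KO LPS (-0.72, adjusted p 0.018) together with its relative Arrdc4 (-0.68, adjusted p 0.045), 2 of 11 in their list. Gbe1 (-0.83) and the transaldolase Taldo1 (-0.55, adjusted p 0.0443) were lower, each the 1 call of its list, and Slc16a7 (0.96) and the aldose mutarotase Galm (0.88, adjusted p 0.0464) were higher, 2 of 18. In the lists of the citric acid cycle and of Hif control 0 of 29 and 0 of 14 genes passed. An unadjusted p under 0.05 was found for 4 and 1 of them, beside 2215 of all 11096 tested genes. Among 7 LPS-response genes checked, 7 rose in each genotype and 5 were higher in KO LPS. Between M0 groups 0 genes of these lists passed.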

How the data were processed

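RNA sequencing of 7 libraries was deposited as a table of TPM per gene for each library, 23337 genes each. The authors scaled the TPM to a total of 1000000 per library before deposit, as the values show. Per the submitters' processing notes the build was mm10. Which aligner, quantification tool and annotation made the TPM is not given in the sources used here. Sequencing depth cannot be read from TPM, so no counting interval or detection limit is given.

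Genes with a mean of at least 1 TPM over the 7 libraries were kept (11096). A model of group means for log2(TPM + 1), spanning the 7 libraries, was fitted in limma 3.58.1 (R 4.3.3). Its variances were moderated with a trend on mean level (3 residual and 7.3 prior degrees of freedom). P-values were adjusted by Benjamini-Hochberg over all tested genes in each of 5 comparisons, with a threshold of 0.05. KO M0 has 1 library, which takes its spread from the other groups. Fold changes on this scale understate changes of low genes. The steps were tested on simulated data, whose noise was reset to the moderated spread after a first run with raw spreads recovered fewer genes, and the share of false calls there was above the nominal level.

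The 39 genes and the lists around them (8 of pathways, 9 of cell markers) were chosen with earlier results of these data known. Text names every gene of the set and, per pathway list, genes among the 4 with the smallest p in WT LPS vs WT M0 or KO LPS vs WT LPS. S100a8, Camp, Col1a1, Col1a2, Pdgfrb, Xist and Ddx3y were named because they move with a group. Pdk2 and Pdk4 were named as the other kinases of pyruvate dehydrogenase. The values of 1 list gene are not reported here. In the lists 6 genes matched by an older symbol and 1 was not matched. Symbols, gene coordinates and promoter windows come from RefSeq on GRCm38.p6, the assembly of mm10.

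The fits were repeated with median-ratio scaling, with 0.1 as pseudocount, without the filter, on the compared groups alone, leaving out each library of the groups with 2, and with a replicate block. Chosen after seeing the data were quantile normalization and leaving out WT LPS altogether. Replicate numbers did not pair the libraries by the rule used (correlation of deviations over 0.1 for every pair of groups). Figures were drawn with matplotlib 3.10.9.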

Additional observations from a re-analysis of the deposited data

Results flagged for a closer look

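The KO response of Adm to LPS exceeded the WT response by 2.44 log2 units on the log2(TPM + 1) scale (limma, test of the difference between responses), the 1 gene of the 39 where that test passed. It was picked out because the effect differed between the genotypes. The value rests on a single KO M0 library in which Adm is listed at 0, so the pseudocount sets its size (5.38 with a pseudocount of 0.1), while all 7 libraries held 5.63 TPM or less.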

How the results depend on the processing

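Over the alternatives, each of the 39 genes was followed in every comparison. Of 2262 gene values over the comparisons and alternatives, 2165 kept their side of the threshold, 67 lost a call, 30 gained one and 0 changed sign past the threshold. A value past the threshold in neither fit was counted as kept even where its sign changed. Counts for WT LPS vs WT M0 stayed between 13 and 22 higher and 5 and 6 lower.

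In KO LPS vs KO M0 the 8 lower genes became between 5 and 9 with a library left out. In KO LPS vs WT LPS the 3 higher genes became 0 with no filter, 5 with the replicate block (Slc2a6, adjusted p 0.0307, and Hk2, 0.0409, gained) and between 0 and 4 with a library left out, and the 2 lower genes became 1 with no filter, 1 with the compared groups alone, 3 with the replicate block (Bnip3l gained, 0.0358) and 1 to 2 with a library left out. For the difference between responses the 1 higher gene became 0 with no filter and between 0 and 2 with a library left out.

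The block could be fitted only over the 6 numbered libraries, for WT LPS vs WT M0 and KO LPS vs WT LPS, since KO M0 has no number. Deviations of same-numbered libraries correlated at 0.08, 0.30 and 0.18 across genes. With no filter more low genes enter the adjustment. With unknown depth, low genes such as Adm and Epas1 carry the least certain values.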
